A study of Mus musculus with 16 samples.

Results

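Of 17999 DNase hypersensitive sites (DHS) that were open in the livers of both sexes and both mouse strains, 8 (0.0444%) ranked at least 15 percentile points higher in females than in males in B6 and again in CAST. Those described here lay at or nearest to Nt5e, Akr1d1, Ptplb, Ttc39c, Snx21, Elfn1 and Hmcn2, each at a locus of its own. Peaks of 4 DHS lists that overlapped by at least 1 bp on chromosomes 1 to 19 were joined into 50655 regions, and 17999 of these held a peak of every list. A region took, in each list, the percentile rank of its highest fold enrichment, counted from 0 to 100 over all peaks of that list. Fold enrichment is the number of reads stacked at the peak summit divided by the local background, with 1 added to both. These ranks chose the 8 DHS in both strains, so their female to male differences are described and were not tested. The mirrored rule, at least 15 points higher in males in both strains, took 3034 regions (16.9%). This balance moved with the peaks over which ranks were counted. With lists of equal size the rule took 618 regions and the mirrored rule 327, and with ranks over the 17999 regions only it was 397 and 517. The study tested replicate libraries of the sexes over all its DHS, which is a different measure. It reported more female-biased than male-biased DHS in both strains.

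DNase-seq finds open chromatin as the places where DNase I, an enzyme that cuts accessible DNA, releases many short fragments. Liver nuclei came from males and females of C57BL/6J (B6), the strain of the mouse reference genome, and of CAST/EiJ (CAST), a wild-derived inbred strain of a different subspecies. Per the labels, mice were 8 weeks of age, and no treatment was named. Digestion was with 32 units of DNase I. The 16 libraries formed 4 groups of 4, Female B6, Male B6, Female CAST and Male CAST, and the reads of each group were merged before DHS were called, so that each group had a single list, the spread between livers was not in these lists, and comparisons between them could not be tested.

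There were 26271 DHS in Female B6, 24888 in Female CAST, 38751 in Male B6 and 39562 in Male CAST. The genome-wide background, taken as the background value shared by the most peak summits of a list, was 13.9 reads in Female B6, 15.4 in Male B6, 7.94 in Female CAST and 14.3 in Male CAST. The median region of all 4 lists ranked lower in females, with a female minus male rank difference of −7.50 in B6 and −9.73 in CAST. It turned positive with lists of equal size, 1.05 and 1.29, and with ranks over regions of all 4 lists only, 0.400 and 0.411. A promoter DHS (within 2.5 kb of a start site) was found at 5 of 6 hepatocyte marker genes in each list. For lymphocyte markers it was 0 of 5 genes in each list, and for Kupffer cell, stellate cell and bile duct markers at most 2 genes in any list. Sinusoidal endothelial markers had promoter DHS at 5 of 7 genes in Female B6, 7 in Male B6, 2 in Female CAST and 3 in Male CAST. In nuclei of a whole tissue, a change in the share of a cell type and a change in openness per nucleus cannot be told apart.

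Sex differences in mouse liver depend largely on the pattern of pituitary growth hormone, which is pulsatile in males and nearly continuous in females and acts through the transcription factor STAT5. Downstream repressors, BCL6 in males and CUX2 in females, and liver factors such as HNF4A, FOXA and C/EBP share many of the enhancers involved. Sex-biased genes of the liver often encode enzymes of steroid, bile acid, lipid and drug metabolism, and a DHS that is more open in a sex is a candidate regulatory element for such genes.

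In 5 of the 8 DHS the summit read number, divided by the genome-wide background, was also higher in females in both strains, and the sequences of 3 of these are shown as examples at a promoter, between genes and in an intron. Each is read from mm9 on the plus strand, in a window of 300 bases centred on the Female B6 summit. They are Akr1d1 (chr6:37567431-37567730, intergenic) and Ptplb (chr16:35056163-35056462, intronic), and for Nt5e the 86 bases of the window that precede its first exon (chr9:88222361-88222446). Capitals mark a match, on either strand, to the letters of an SP and KLF site (GGGCGG), a C/EBP site (TTGCNNAA) or a glucocorticoid receptor site (ACANNNTGT), where N is any base.
Nt5e: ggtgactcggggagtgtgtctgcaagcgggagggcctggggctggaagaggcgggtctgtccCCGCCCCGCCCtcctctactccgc
Akr1d1: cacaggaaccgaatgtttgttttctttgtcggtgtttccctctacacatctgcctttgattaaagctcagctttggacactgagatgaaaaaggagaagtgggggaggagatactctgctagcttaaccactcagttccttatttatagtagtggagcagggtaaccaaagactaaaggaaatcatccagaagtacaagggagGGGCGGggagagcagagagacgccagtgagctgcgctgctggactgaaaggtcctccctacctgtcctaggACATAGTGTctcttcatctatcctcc
Ptplb: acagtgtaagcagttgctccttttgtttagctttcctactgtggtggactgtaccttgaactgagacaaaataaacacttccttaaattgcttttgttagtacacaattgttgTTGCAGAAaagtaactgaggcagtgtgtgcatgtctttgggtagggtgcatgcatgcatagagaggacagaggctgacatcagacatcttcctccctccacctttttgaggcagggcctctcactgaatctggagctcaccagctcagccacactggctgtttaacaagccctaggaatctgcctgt

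Nt5e encodes CD73, a cell surface enzyme that makes adenosine from extracellular AMP. Its DHS (chr9:88222219-88222978) covered the start site of the gene, with the summits in the non-coding part of the first exon, and had the highest fold enrichment over local background of the 8. The fold enrichment was 5.16 in Female B6 against 3.30 in Male B6, and 7.99 in Female CAST against 4.49 in Male CAST. These values ranked at 81.6 against 46.1 in B6 and at 90.3 against 61.0 in CAST, so that the rank difference was 35.5 and 29.3. Both female values lay above both male values. The summits of the 4 lists fell within 45 bp of each other, and the printed bases before the first exon hold a pair of SP and KLF matches that share a base.

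Akr1d1 encodes the steroid 5-beta-reductase of bile acid synthesis and steroid breakdown. Its DHS (chr6:37567271-37568084) was intergenic, 77.6 kb from the nearest start site of Akr1d1 and 252.7 kb from that of Trim24, which encodes a transcriptional cofactor. The fold enrichment was 3.07 in Female B6, 2.42 in Male B6, 4.82 in Female CAST and 2.45 in Male CAST. The rank difference was 24.7 in B6 and 47.0 in CAST, the largest of the 8 in CAST. The strains differed in females, where the rank was 43.7 in B6 and 63.8 in CAST, more than in males, where it was 19 and 16.8. The female summits lay 40 bp apart and the male ones 528 bp apart, and the summits of all 4 lists spanned 528 bp, so that the sexes were not compared at a single position here. The median span over all regions was 91 bp.

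Ptplb, also called Hacd2, encodes a dehydratase of the elongation cycle of very long chain fatty acids. Its DHS (chr16:35055956-35056674) was intronic, 33.4 kb from the start site. The fold enrichment was 3.28 in Female B6, 2.81 in Male B6, 3.91 in Female CAST and 2.72 in Male CAST. The rank difference was 17.1 in B6 and 20.9 in CAST, and the window holds a C/EBP match. The promoter region of the gene (chr16:35021856-35023218) had a rank difference of 0.7 in B6 and −3.2 in CAST, both close to 0.

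A further 4 DHS lay at genes of membrane, matrix or less studied functions. Snx21 encodes a sorting nexin, a protein of endosomal membrane traffic. Its DHS (chr2:164615941-164616496) lay inside the gene, 30 bp from an internal start site, and had a fold enrichment of 2.88 in Female B6, 2.47 in Male B6, 3.88 in Female CAST and 2.64 in Male CAST. The rank difference was 15.9 and 22.7. At the upstream promoter of Snx21 (chr2:164610814-164611930) it was −12.7 and −19.9, the opposite sign in both strains. An internal start site of Acot8, which encodes a peroxisomal acyl-CoA thioesterase, was 5.5 kb away.

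Elfn1 encodes a leucine-rich repeat membrane protein known from synapses. Its DHS (chr5:140347735-140348388) was intergenic, 35.5 kb from the start site, with a fold enrichment of 2.95 in Female B6, 2.38 in Male B6, 3.91 in Female CAST and 2.88 in Male CAST. The rank difference was 22.3 and 15.8. The nearest other region of any list was 44.6 kb away, so that this was the most isolated of the 8 DHS.

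Hmcn2 encodes hemicentin 2, an extracellular matrix protein. Its DHS (chr2:31315695-31316469) overlapped a coding exon at the end of Hmcn2 and lay 9.3 kb before the start site of Ass1, which encodes argininosuccinate synthase of the urea cycle. The fold enrichment was 2.75 in Female B6, 2.33 in Male B6, 3.44 in Female CAST and 2.55 in Male CAST, and the rank difference was 16 and 15.1. The region at the Ass1 start site (chr2:31325155-31326081) had 3.0 and −22.2. Ttc39c encodes a tetratricopeptide repeat protein, and its DHS (chr18:12806086-12806912) was intronic, 4.2 kb from a start site. The fold enrichment was 3.80 in Female B6, 3.26 in Male B6, 4.75 in Female CAST and 3.46 in Male CAST, and the rank difference was 17.2 and 18.

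**Figure D1:**
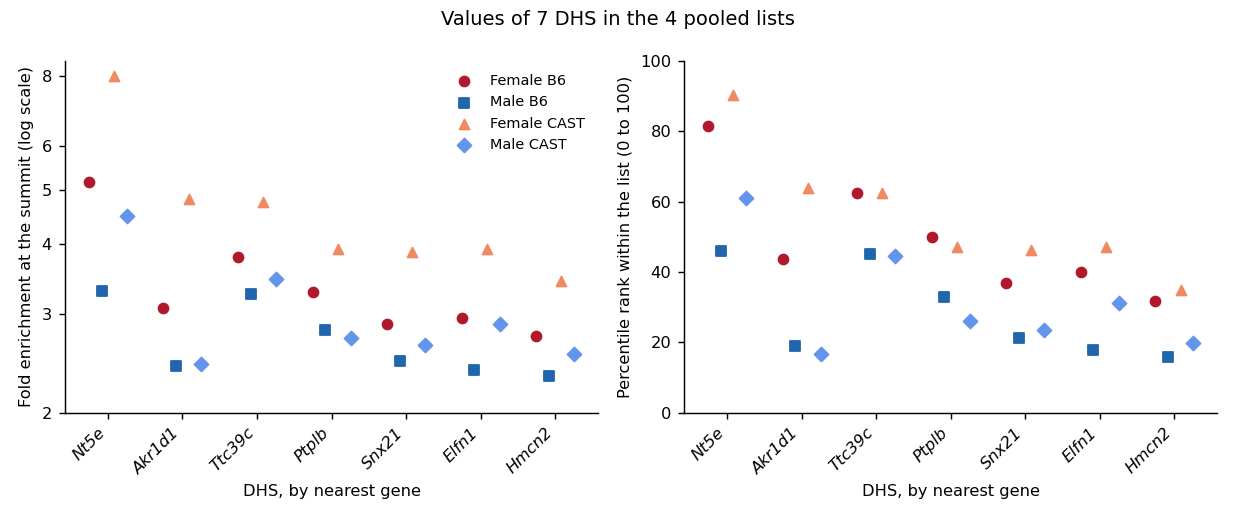
The fold enrichment at the summit on a log scale (left) and the percentile rank within the list (right) are plotted for 7 of the 8 DHS, with 1 point for each pooled list and no error bars because each group has a single list. The female points lie above the male points of the same strain at each DHS, as the rule requires of the ranks, and the Nt5e DHS has the highest fold of these in each list, closely followed in Male B6 by Ttc39c (3.30 and 3.26).

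The deposited fold enrichment, which the rule used, had a lower median at the 8 DHS than over the regions they were chosen from in each list, although Nt5e in both female lists, and Akr1d1 and Ttc39c in Female CAST, lay above the median of all regions. Their median fold enrichment was 3.01 in Female B6 and 2.44 in Male B6, against 3.88 and 5.35 over all 17999 regions. In CAST it was 3.92 in females and 2.68 in males, against 4.66 and 5.80. In male lists the median rank of the 8 was 20.03 in B6 and 24.8 in CAST, and that of all regions was 74.6 and 74.8. Over the genome-wide background the median fold of the 8 was also lower in 3 lists, 3.92 against 5.16 in Female B6, 3.24 against 8.99 in Male B6 and 4.07 against 9.70 in Male CAST, but not in Female CAST, where it was 6.54 against 6.38. A region with a high rank in males had little room to rank 15 points higher in females, and the highest male rank among the 8 was 61.0, at Nt5e in CAST.

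Summit read numbers were recovered from the deposited values and compared over 2 backgrounds. At Nt5e the summit held 111 reads in Female B6 and 53 in Male B6, and 100 and 79 in CAST. Divided by the local background, the female value was 1.55 times the male value in B6 (95% interval 1.11 to 2.198) and 1.83 times in CAST (1.35 to 2.49). These intervals are exact binomial, take the background as known, cover the counting of reads only, and give the precision of values that chose the DHS, not a test. At Akr1d1 the ratio was 1.28 in B6 (0.818 to 2.02) and 2.02 in CAST (1.33 to 3.10), with 46 against 39 reads and 64 against 38 reads. At Elfn1 the ratio was 1.25 in B6 (0.787 to 1.98) and 1.42 in CAST (0.878 to 2.28). The summit there held 43 against 38 reads in B6 and 34 against 43 in CAST. In B6 the interval included equal female and male values at each DHS described here except Nt5e. In CAST it did so at Elfn1 and Ptplb (0.941 to 2.42) and lay above equality at the others described.

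At Hmcn2, Ttc39c, Snx21 and Ptplb the females had fewer reads at the summit and a lower local background in both strains. Snx21 had 66 reads in Female B6 and 81 in Male B6, and 51 and 73 in CAST. Ptplb had 49 and 51 reads in B6 and 34 and 45 in CAST. The gap was wider at the other two. Hmcn2 had 132 reads in Female B6 and 216 in Male B6, and 138 and 232 in CAST, while its local background was 3.40 and 6.01 times the genome-wide background in B6 and 4.96 and 6.35 times in CAST. Ttc39c had 120 and 205 reads in B6 and 115 and 209 in CAST, with a local background of 2.21 and 4.05 times, and 2.95 and 4.18 times, the genome-wide one. Divided by the genome-wide background in place of the local one, the female to male ratio of fold was 0.672 in B6 and 1.02 in CAST at Hmcn2, and 0.644 and 0.942 at Ttc39c. At Snx21 it was 0.895 and 1.20. The direction at these 3 DHS therefore turned in B6 with the background used, and in CAST at Ttc39c. The remaining 5 stayed above 1 in both strains, among them Nt5e with 2.27 and 2.15, Akr1d1 with 1.29 and 2.84, Elfn1 with 1.24 and 1.36, and Ptplb with 1.05 and 1.30. Over all 17999 regions the median of this ratio was 0.575 in B6 and 0.674 in CAST.

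**Figure D2:**
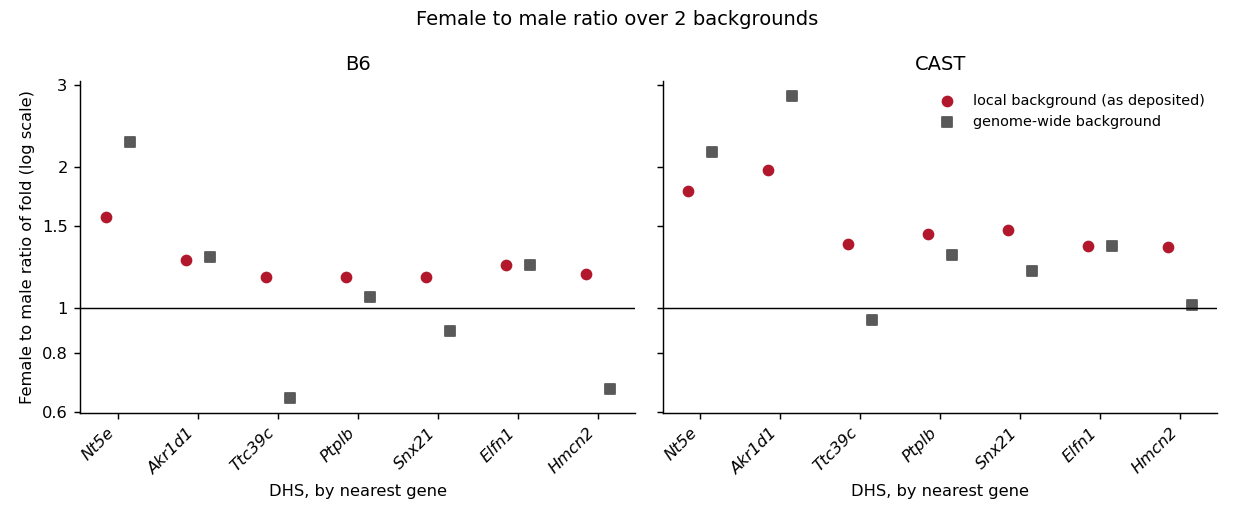
The female to male ratio of fold is plotted on a log scale for 7 of the 8 DHS in B6 (left) and CAST (right), with the summit reads divided by the local background as deposited (red circles) or by the genome-wide background of the list (grey squares). The red circles lie above 1 at each DHS, and the grey squares of Ttc39c, Snx21 and Hmcn2 in B6 and of Ttc39c in CAST lie below it.

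The limit of 15 fell within a continuous range of values. Just inside it were Hmcn2, Elfn1 and Snx21, whose smaller rank differences were 15.1, 15.8 and 15.9. Just outside were a promoter DHS at Slc6a13, which encodes a transporter of GABA (chr6:121250001-121250912, 14.7 in B6 and 20.4 in CAST), a DHS 1548 bp from the start site of Plin2, a lipid droplet coat protein (chr4:86317512-86318289, 16.9 and 14.6), and a DHS 35.0 kb from that of Pvrl1, which encodes nectin 1 (chr9:43516749-43517634, 24.9 and 13.5). With a limit of 10 the rule took 27 regions, and with 20 it took 3, among them those at Nt5e and Akr1d1. Rank is relative to the length of a list. When each list was shortened to its 24888 highest-scoring peaks the rule took 618 regions, of which Nt5e, Ttc39c and Hmcn2 were 3, and the other 5 DHS were then no longer in all 4 lists.

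**Figure D3:**
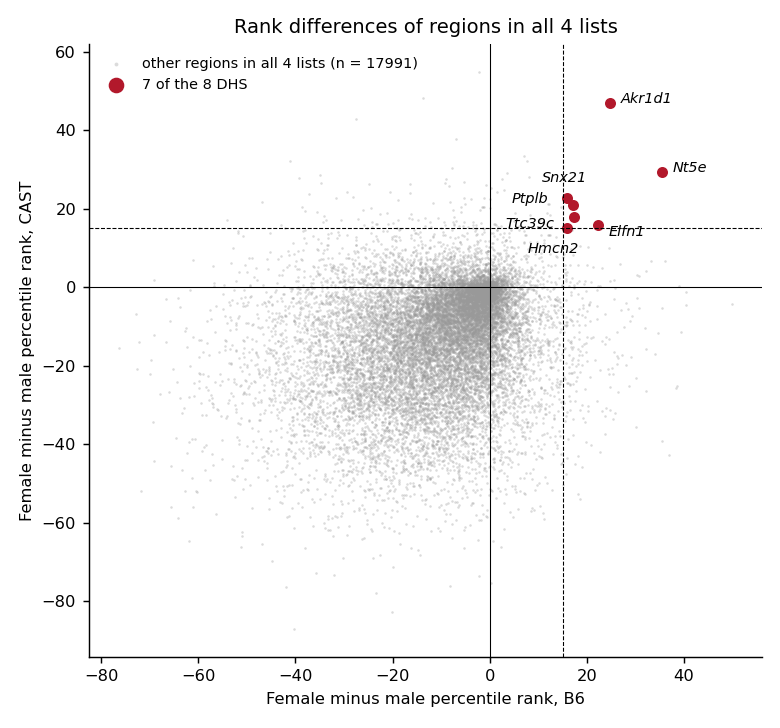
Each point is a region of all 4 lists, placed by its female minus male percentile rank in B6 (x axis) and in CAST (y axis), with 7 of the 8 DHS in red, zero as solid lines and the limit of 15 as dashed lines. Most regions lie below zero on both axes, with medians of −7.50 and −9.73, and the red points stand at the upper right corner.

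The strain that was not used for a choice gives a measure apart from that choice. In B6, 227 regions (1.26%) ranked at least 15 higher in females, and in CAST 126 regions (0.700%) did. Higher in males by the same limit were 5414 regions (30.1%) in B6 and 6680 (37.1%) in CAST. With lists of equal size the counts were 2144 higher in females and 1526 higher in males in B6, and 2358 and 1571 in CAST, so that the balance turned. The 227 regions chosen in B6 had a median rank difference of −12.7 in CAST, against −9.73 over all regions, and 22.5% of them were above 0 there against 13.7% of all. The 126 regions chosen in CAST had a median of −7.43 in B6, against −7.50, and 27.8% were above 0 against 17.5%. Zero has no special standing here, since the median over all regions was itself below 0 and turned with lists of equal size, and these shares were not computed with other ranks. The 8 DHS made up 3.52% of the regions chosen in B6, where 0.700% of all regions were past the limit in CAST. They made up 6.35% of those chosen in CAST, where 1.26% of all were past it in B6. These overlaps were not tested.

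**Figure D4:**
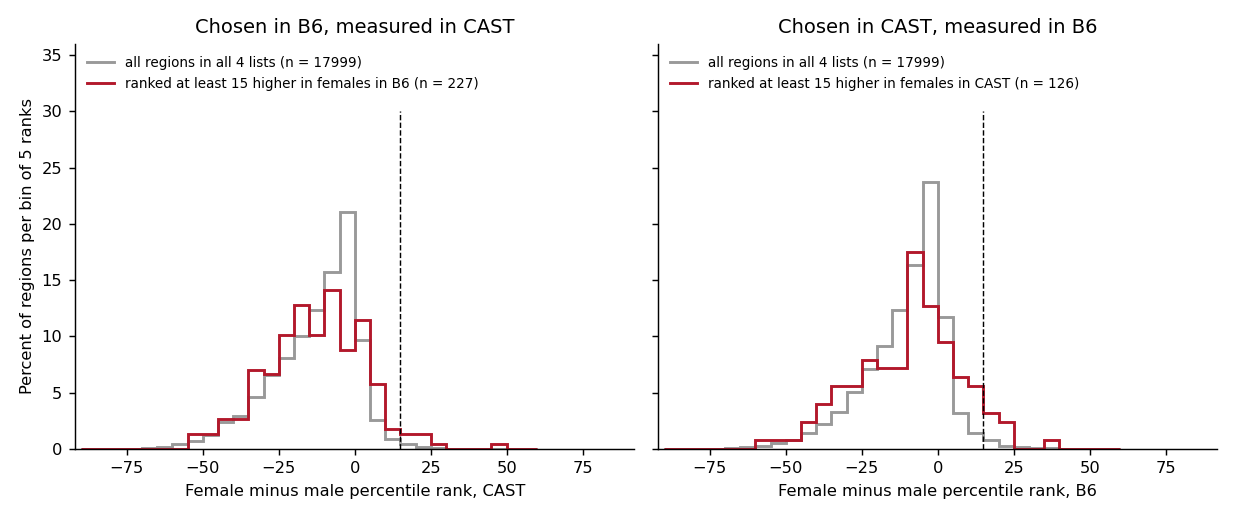
The distribution of the female minus male percentile rank in CAST for regions chosen in B6 (left) and in B6 for regions chosen in CAST (right) is drawn in red beside all 17999 regions in grey, as the percent of regions per bin of 5 ranks, with the limit of 15 dashed. The red curves are wider than the grey ones, and most of both the red and the grey area lies below 0.

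Regions around the 8 DHS ranked lower in females at the median, as did regions elsewhere. Within 50 kb there were 25 other regions of all 4 lists, which the rule had not chosen. Their median rank difference was −6.96 in B6 and −7.24 in CAST, and it was −7.51 and −9.74 for the 17991 regions outside the rule. These medians rest on ranks over all peaks of a list, and the 25 regions were not ranked in another way. Of the 25, 7 were above 0 in B6 and 6 in CAST, or 28.0% and 24.0%, against 17.5% and 13.7% of all others. Those above 0 in both strains were 2 (8.00%, against 3.57%), 1 of them a region 3.3 kb from the Ttc39c DHS (5.7 and 0.8). At Akr1d1, with 6 such neighbours, 2 were above 0 in B6 and 3 in CAST, none of them in both. A neighbour 12.1 kb from the Akr1d1 DHS (chr6:37554417-37555200) had −24.8 in B6 and 26.4 in CAST. Of 57 regions of any list within 50 kb, 7 (12.3%) were in both male lists only, against 9.37% of all 50655 regions, and 0 in both female lists only, against 0.0533%. The 7 included a region 432 bp from the Nt5e DHS.

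**Figure D5:**
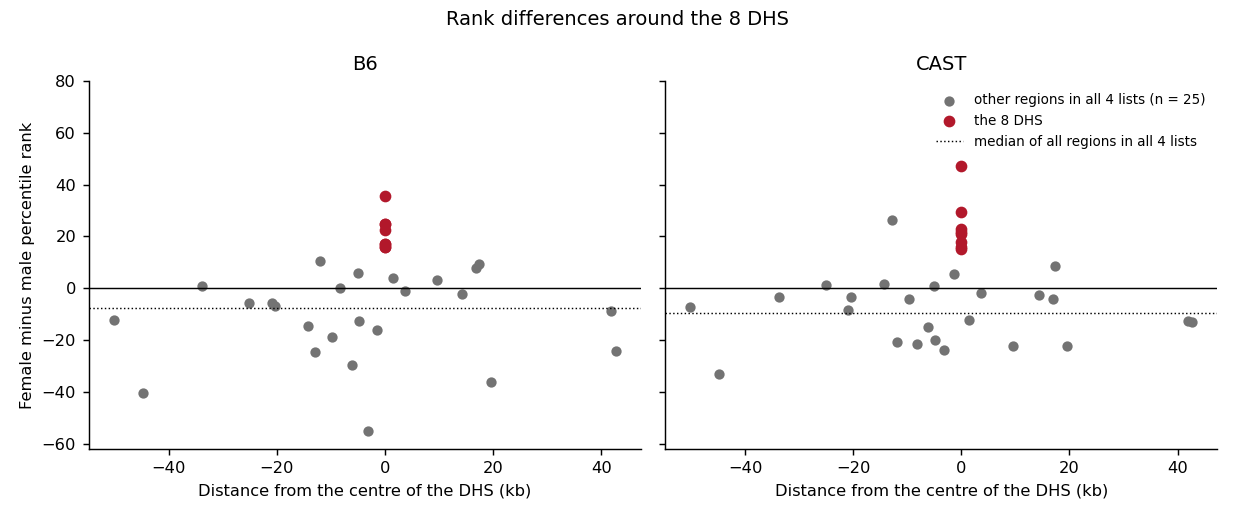
The female minus male percentile rank of the 25 other regions within 50 kb (grey) is plotted against their distance in kb from the centre of the nearby DHS (red, at 0), in B6 (left) and CAST (right), with the median over all regions dotted. The grey points scatter around the dotted line, and 1 neighbour in CAST (26.4) lies within the range of the red points.

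Position and sequence were not used by the rule. Of the 8 DHS, 6 (75.0%, Wilson 95% interval 40.9 to 92.9) lay more than 2.5 kb from every start site, against 45.6% of all 17999 regions and 60.0% of the mirrored set. Among all regions past the limit in B6, whatever their value in CAST, the share was 68.7%. Among those past it in CAST it was 57.1%. The share was 42.9% to 55.6% under the 5 settings that took 20 or more regions. The interval covers counting error only and includes each of these shares. The median GC content of the 300-base windows was 47.8% (quartiles 44.7 to 53.2), against 54.3% over all regions and 50.3% in the mirrored set. For regions past the limit in B6 and in CAST the median GC was 50.7% and 50.3%. It was highest, 67.0%, at Nt5e, whose window held 22 CpG dinucleotides where the median of the 8 was 3. The DHS were at most 827 bp wide, with a median of 739.5 bp, against 924 bp over all regions and 833 bp in the mirrored set. Regions past the limit in B6 and in CAST had median widths of 749 and 692.5 bp, so a narrow width was not particular to the 8.

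Matches to 19 motifs were counted in the same windows, on both strands. The half-site AGGTCA was found in 5 of the 8 windows (62.5%), among them those of Ttc39c, Snx21, Elfn1 and Hmcn2, and in 23.7% of all windows. A C/EBP match, TTGCNNAA, was in 4 windows (50.0%, against 15.6%), those of Ttc39c, Ptplb, Snx21 and Elfn1. A FOXA match, TGTTTAC, was in 2 windows, that of Hmcn2 among them (25.0%, against 5.90%). GGGCGG, the SP and KLF letters, was in 3 windows (37.5%, against 36.3%), and ACANNNTGT, of the glucocorticoid receptor, was in that of Akr1d1 alone (12.5%, against 7.34%). No window held STAT5 letters (TTCNNNGAA, in 8.57% of all windows), BCL6 letters (TTCCTNGAA, 1.91%), the letters of HNF6 (ATTGAT, 9.65%) or of HNF6 and CUX2 (ATCGAT, 1.82%). The same held for the HNF4A core (CAAAGTCCA, 1.58%), AP-1 (TGANTCA, 7.56%), the E-box (CACGTG, 8.78%), the D-box (TTACGTAA, 0.217%), ETS (CCGGAAGT, 3.81%) and the CTCF core (CCACNAGG, 5.48%). The longer motifs named DR1 (0.0944% of all windows), HNF1 (0.272%), NRF1 (1.13%) and ERE (0.0389%) were also in none of the 8. A DR1 match holds the half-site letters, and each match to the BCL6 letters is also a match to the STAT5 letters, so that their absence is a single observation. With 8 windows these shares are a description, and a match is not a bound site.

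Genes known for sex-biased expression in liver were examined by the regions within 20 kb of their start sites. The list of female-biased genes had 56 members, of which 32 had such a region, 76 regions in all. At least 15 points higher in females were 6 of the 76 (7.89%, against 1.26% of all regions) in B6 and 3 (3.95%, against 0.700%) in CAST. In both strains it was 2, that at Nt5e among them, where 0.0444% of all regions met the rule. Higher in males in both strains were 7 of the 76 (9.21%, against 16.9%). Hepatocyte markers, with 23 regions, had 8.70% past the limit in females in B6 and 0% in CAST. Growth hormone and regulator genes, with 107 regions, had 0.935% and 4.67%. Most other lists had lower shares. The median over the 76 regions was −5.93 in B6 and −6.11 in CAST. The list of male-biased genes, with 62 regions, had 0 in B6, 2 (3.23%) in CAST and 0 in both, and its medians were −12.9 and −16.4. Higher in males in both strains were 17 of its regions (27.4%). These values include Slc16a5, which belongs among the female-biased genes and holds 1 of the 2 regions in CAST, and neither list was recomputed without or with it. These lists were drawn up with earlier results of these data known, and no set was tested.

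The remaining female-biased genes with a region past the limit had it in a single strain. A region shared by Acot3 and Acot4, acyl-CoA thioesterases (chr12:85384833-85385344), ranked 34.0 points higher in females in B6 and had −16.9 in CAST. A region of Tox, a transcription factor gene (chr4:6917868-6918571), had 39.3 and −11.4, and a region of Vldlr, a lipoprotein receptor gene (chr19:27310245-27310823), had 19.2 and −4.6. In CAST, a region of Cux2 (chr5:122469187-122469820), which encodes the female-biased repressor, had 32.3, and it had 7.7 in B6. The fold enrichment there was 3.51 in Female B6, 3.41 in Male B6, 7.12 in Female CAST and 3.97 in Male CAST. Cyp8b1, a bile acid hydroxylase gene of the male-biased list, had a region (chr9:121835647-121836218) with 27.6 in CAST and 2.4 in B6. The other region of that list past the limit in CAST was at Slc16a5, a monocarboxylate transporter gene (chr11:115323316-115323989, 17.6 in CAST and −16.6 in B6). The study describes Slc16a5 as female-biased, so its place in the male-biased list was wrong. A list of genes that the study shows as examples also holds Nt5e, and it is not independent of these samples. None of the 8 DHS lay within 20 kb of a start site of a gene in the other 14 lists, which covered growth hormone signalling, the circadian clock, lipid synthesis, fatty acid oxidation, xenobiotic response, stress and acute phase genes, markers of 6 cell types, and the male-biased genes.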

How the data were processed

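The authors mapped uniquely aligned DNase-seq reads with Bowtie2, B6 reads to mm9 and CAST reads to mm9 with CAST variants written in, converted CAST coordinates back to mm9, pooled libraries by sex and strain, and called DHS with MACS2, with blacklisted regions and peaks of duplicated reads removed. The deposited lists give each peak's fold ratio over the local background, its −log10 p-value and −log10 q-value, a score that restates the q-value, and the summit position. A list on pooled libraries is 1 measurement, so values carry no replicate error and read totals per library were not used here.

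Fold ratio and p-value together fix the summit read number, whole to within 0.02 for 99.86% of peaks in Male B6 and at least 99.91% in the other lists. The background shared by the most peaks was taken as genome-wide. Distances and gene parts came from the GENCODE annotation of mm9 (protein-coding, lincRNA and processed-transcript genes), and all coordinates are mm9 and count from 1. Gene synonyms came from a RefSeq gene table, used for names only. DHS that met the rule are named by their nearest gene, and 1 of the 8 is counted in totals and medians but not reported here on its own. The 8 DHS, the 16 gene lists, the 19 motifs and the alternatives were chosen with earlier results of these data known. Joining, ranking and recovery of read numbers were tested on simulated data. The tools were Python 3.11.15, pandas 2.3.3, numpy 2.4.6 and scipy 1.17.1.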

Additional observations from a re-analysis of the deposited data

How the results depend on the processing

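The number of DHS that met the rule was set largely by how ranks were made. It was 8 in the lists as deposited, with peaks joined only where 50% of both overlapped, with regions of exactly 1 peak per list, and with chromosome X included. It was 3 when peaks were ranked by −log10 q or by −log10 p or with a limit of 20, 27 with a limit of 10, 20 with a female to male fold ratio of at least 1.5 after centring, 34 after recovered summit reads were thinned to the lowest genome-wide background of the 4 lists, which does not match the depth of libraries (4 of the 8), 397 with ranks over regions of all 4 lists only (7 of the 8), 618 with lists of equal size (3 of the 8), and 0 with peaks above the pooled median −log10 q of 15.7. With the genome-wide background, an alternative chosen after seeing the data as was that of chromosome X, it was 5 (2 of the 8). In B6 the rank difference of Elfn1 fell to −6.8 after thinning, and that of Ttc39c to −0.6 with the genome-wide background.

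The promoter-distal share was 40.0% with the genome-wide background, 45.6% with ranks over regions of all 4 lists only, 42.9% with lists of equal size, 47.1% after thinning, 55.0% with centred fold ratios and 55.6% with a limit of 10. The median GC content was 55.0% with ranks over regions of all 4 lists only and 54.7% with lists of equal size. The median rank difference of neighbours, taken around the regions that met the rule under each setting and so not around the same 8 DHS, turned positive with these settings, to 1 in B6 and 1.23 in CAST, and to 2.01 and 2.18. In CAST alone it was 0.0049 with ranks by −log10 q or p and 1.06 with the genome-wide background. There were 3 loci with 3 or more DHS with lists of equal size, and 0 under every other setting run. With neighbours within 20 kb the median was −4.60 in B6 and −4.02 in CAST, against −6.96 and −7.24. A promoter limit of 1 kb and a locus gap of 20 kb moved no value. No paired analysis was possible because each group is a single pooled list, and leaving out single replicates could not be run on pooled lists.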

Other observations

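Chromosome X held 310 regions of all 4 lists. Of these, 3 (0.968%, against 1.26% on chromosomes 1 to 19) ranked at least 15 higher in females in B6, 1 (0.323%, against 0.700%) in CAST and 0 in both, and 93 (30%, against 16.9%) ranked at least 15 higher in males in both strains. The median female minus male rank difference on the X was −15.9 in B6 and −14.4 in CAST. These values rest on ranks over all peaks of a list, by which the balance on chromosomes 1 to 19 also fell to males. The X was not ranked in another way.

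Ranking by fold over the genome-wide background took, beside Nt5e and Akr1d1, a DHS of Cux2, 20.6 kb from its nearest start site (chr5:122475957-122477218), with a rank difference of 15.2 in B6 and 25.6 in CAST. Its deposited fold enrichment was 5.03 in Female B6, 5.17 in Male B6, 6.15 in Female CAST and 4.88 in Male CAST, so that the female value was the higher one in CAST only. The other 2 DHS lay near Coil, which encodes the Cajal body protein coilin, and at the predicted gene Gm7120. These regions were chosen after their values were seen.

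After recovered summit reads were thinned to the lowest genome-wide background of the 4 lists, regions near Bcl6, the gene of the male repressor (chr16:23982530-23982828, 6.1 kb from the start site, 17.2 in B6 and 19 in CAST), Cyp8b1 (21.8 and 17.7) and Apoa1 (20.8 and 17.3) were among the 34 that met the rule. They are examples from the 34. In the lists as deposited the same Cyp8b1 region had 2.4 in B6 and 27.6 in CAST. That of Apoa1 had 26.9 and 5.9, so each passed the limit in a single strain there. A single random thinning was drawn.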
